A study of Mus musculus with 6 samples.

Results

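The cartilage differentiation genes are 33 mouse genes, named as a list of chondrogenic transcription factors, cartilage matrix proteins and growth plate signals. All 33 were found by symbol among the 55631 Ensembl gene IDs of the expression table, and all 33 were above 0 in at least 1 library. RNA came from the palatal shelves of mouse embryos at E14.5, around the time the shelves rise above the tongue and fuse. The 3 control libraries came from embryos labelled p130Casfl/fl, which carry loxP-flanked alleles of the gene for the adhesion adaptor p130Cas (Bcar1). The 3 KO libraries came from embryos with the same alleles and CAG-Cre, a Cre recombinase under a broadly active promoter. No Cre label is given for the controls. The labels name neither the sex of the embryos nor their litters, and do not say whether shelves were pooled. P-values therefore measure only the spread between these samples, which may be technical.

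Cartilage forms where mesenchymal cells condense and switch on Sox9, a transcription factor that, with Sox5 and Sox6, drives the genes of cartilage matrix. Chondrocytes then lay down a network of collagen II, IX and XI fibrils filled with aggrecan bound to hyaluronan. Maturing chondrocytes make Indian hedgehog and later collagen X. The palate itself ossifies within membranes, without a cartilage model, while the nasal septum above it and Meckel's cartilage in the lower jaw are cartilage.

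Expression was given as FPKM, a fragment count divided by the length of the gene and the size of the library, so levels can be compared between genes. Each library summed to 384979 to 424993 FPKM. Read depth is unknown, and the lowest values above 0 lay near 0.1 FPKM. Tests were run on log2(FPKM + 1) with limma for 14714 genes averaging 1 FPKM or more, 30 of them cartilage genes. Bcar1, the deleted gene, stood at 1.80, 1.97 and 2.09 FPKM in controls 1, 2 and 3, against 1.69, 1.69 and 1.31 FPKM in KO 1, 2 and 3 for a difference with a limma adjusted p of 1.00. Its groups did not overlap but the difference did not pass, and the labels do not say which exons lie between the loxP sites. Of the 33 cartilage genes, 10 have exons that overlap another annotated gene, and for 3 of these the other gene was listed at 0. No source used here gives the strand setting of the counting, so the values of the others may include reads of the partner, as for Pth1r with Myl3 and Mia with Gm21983.

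Most matrix genes of cartilage ranged widely among libraries of 1 genotype, and most were high or low in the same libraries. In what follows, controls and KO libraries are numbered by their replicate. Col2a1 (ENSMUSG00000022483), which encodes the main collagen of cartilage and lies on the minus strand of chromosome 15, 97975602 to 98004695 (GRCm38), was the most abundant of the 33 in the control libraries. Its level was 126, 111 and 258 FPKM in controls 1, 2 and 3, against 315, 49.1 and 48.4 FPKM in KO 1, 2 and 3. KO replicate 1 was the highest library and KO replicates 2 and 3 the lowest, with all 3 controls in between. The highest level was 6.51-fold the lowest, within a single genotype. The genotype difference in log2(FPKM + 1) was -0.75 ± 0.70 (SE; limma, adjusted p = 1.00). The difference was smaller in size than the SD among KO libraries, 1.54, and larger than the SD among controls, 0.653. With single libraries left out it ran from -1.64 without KO replicate 1 to -0.30 without KO replicate 3, and with library weights, which let libraries that vary more count less, it was 0.23.

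Collagen XI, which starts the thin fibrils and sets their width, is built from the products of Col11a1 and Col11a2 together with a chain from Col2a1. Col11a2 stood at 40.7, 27.3 and 46.7 FPKM in controls 1, 2 and 3, against 47.8, 22.7 and 18.8 FPKM in KO 1, 2 and 3. It had the same 2 lowest libraries as Col2a1, over a narrower range of 2.54-fold. Col11a1, which many mesenchymal tissues also express, stood at 43.0, 27.7 and 36.4 FPKM in controls 1, 2 and 3, against 54.4, 19.7 and 40.4 FPKM in KO 1, 2 and 3. Here KO replicate 3 lay among the controls and only KO replicate 2 was below them. The genotype differences were -0.43 ± 0.33 (SE; limma, adjusted p = 1.00) for Col11a2 and 0.0013 ± 0.34 for Col11a1 (SE; limma, adjusted p = 1.00). The Col11a2 difference ran from -0.82 without KO replicate 1 to -0.17 without KO replicate 3, and was 0.090 with library weights. The sign for Col11a1 is not stable, being below 0 with a pseudocount of 0.1 or 0.01 and running from -0.31 without KO replicate 1 to 0.41 without KO replicate 2.

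Collagen IX coats these fibrils and is a trimer of the chains from Col9a1, Col9a2 and Col9a3. Col9a1 stood at 21.0, 21.6 and 44.4 FPKM in controls 1, 2 and 3, against 54.8, 6.65 and 6.35 FPKM in KO 1, 2 and 3. Col9a3 stood at 36.9, 34.3 and 76.6 FPKM in controls 1, 2 and 3, against 91.6, 17.6 and 12.1 FPKM in KO 1, 2 and 3. Both kept the library order of Col2a1 at its ends, with KO replicate 1 highest and KO replicates 2 and 3 lowest, over 8.64-fold and 7.55-fold. Col9a2 stood at 54.0, 48.6 and 83.3 FPKM in controls 1, 2 and 3, against 96.3, 44.2 and 38.7 FPKM in KO 1, 2 and 3, the same order over 2.49-fold. The 3 chains were therefore not in 1 proportion in every library. The ratio of Col9a2 to Col9a1 was 2.57, 2.25 and 1.88 in control replicates 1 to 3, 1.76 in KO replicate 1, and 6.65 and 6.09 in KO replicates 2 and 3. The ratio of Col9a3 to Col9a1 ranged from 1.59 to 2.65. None of the 3 passed, with genotype differences of -0.95 ± 0.74, -0.13 ± 0.34 and -0.73 ± 0.68 for Col9a1 to Col9a3 (SE; limma, adjusted p = 1.00 each). Leaving out single libraries, these ran from -1.92 without KO replicate 1 to -0.45 without KO replicate 3 for Col9a1, from -0.53 without KO replicate 1 to 0.11 without KO replicate 3 for Col9a2, and from -1.59 without KO replicate 1 to -0.18 without KO replicate 3 for Col9a3. With library weights all 3 were above 0, at 0.038, 0.32 and 0.16.

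Promoters are shown for Col9a1 and Col9a2, whose ranges differed. Also shown are those of Hapln1, the gene with the library profile closest to Col2a1, and of Epyc, the cartilage gene with the smallest p. They come from RefSeq on GRCm38.p6 and run 5′ to 3′ along the gene, from 250 bases before a start to 50 bases from it. Capitals mark a SOX motif, searched on both strands as 7 letters: A or T at the first and second, then CAA, then A or T, then G. The windows are chr1:24177360-24177659 (plus strand) for the upstream of 2 Col9a1 starts, chr4:121039316-121039615 (plus strand) for Col9a2, chr13:89540386-89540685 (plus strand) for Hapln1 and chr10:97643818-97644117 (plus strand) for the upstream of 2 Epyc starts.
Col9a1: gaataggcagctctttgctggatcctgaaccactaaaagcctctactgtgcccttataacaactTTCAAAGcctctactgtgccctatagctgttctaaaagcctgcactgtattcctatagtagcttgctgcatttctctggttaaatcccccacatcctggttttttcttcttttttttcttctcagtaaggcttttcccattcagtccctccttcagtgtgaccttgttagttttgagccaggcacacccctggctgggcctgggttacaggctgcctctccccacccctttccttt
Col9a2: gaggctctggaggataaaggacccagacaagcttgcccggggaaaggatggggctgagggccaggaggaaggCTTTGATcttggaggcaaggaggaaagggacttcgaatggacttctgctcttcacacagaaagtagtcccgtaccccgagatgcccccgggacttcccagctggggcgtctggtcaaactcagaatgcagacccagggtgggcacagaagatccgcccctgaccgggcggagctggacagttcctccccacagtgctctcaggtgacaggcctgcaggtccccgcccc
Hapln1: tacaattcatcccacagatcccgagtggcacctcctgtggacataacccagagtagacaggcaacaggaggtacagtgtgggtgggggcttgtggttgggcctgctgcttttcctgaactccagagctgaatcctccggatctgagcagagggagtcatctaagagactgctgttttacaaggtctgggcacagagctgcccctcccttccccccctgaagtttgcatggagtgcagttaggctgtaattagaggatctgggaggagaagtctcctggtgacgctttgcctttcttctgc
Epyc: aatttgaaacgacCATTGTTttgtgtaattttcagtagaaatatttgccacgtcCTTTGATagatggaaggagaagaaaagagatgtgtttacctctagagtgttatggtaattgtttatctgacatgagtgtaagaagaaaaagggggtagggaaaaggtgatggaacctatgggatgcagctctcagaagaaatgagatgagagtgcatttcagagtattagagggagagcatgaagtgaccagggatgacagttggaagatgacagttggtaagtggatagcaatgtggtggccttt

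The SOX motif was found once in the Col9a1 window and once in the Col9a2 window, in 2 places in the Epyc window and not in the Hapln1 window. RefSeq promoters matched 26 of the 33 genes, all but Sox9, Col2a1, Col9a3, Matn2, Comp, Snorc and Scrg1, with 37 starts. Of these starts, 12, or 32.4%, held the motif, beside 24.6% of all 32851 promoters of the same length. The 12 starts belonged to 6 genes, and 6 of them were alternative starts of Sox6. The TATA box TATAAA was in 18.9% of the starts and 13.6% of all promoters. The GC box GGGCGG was in 51.4% and 35.7%. A match describes letters in this window only.

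**Figure D1:**
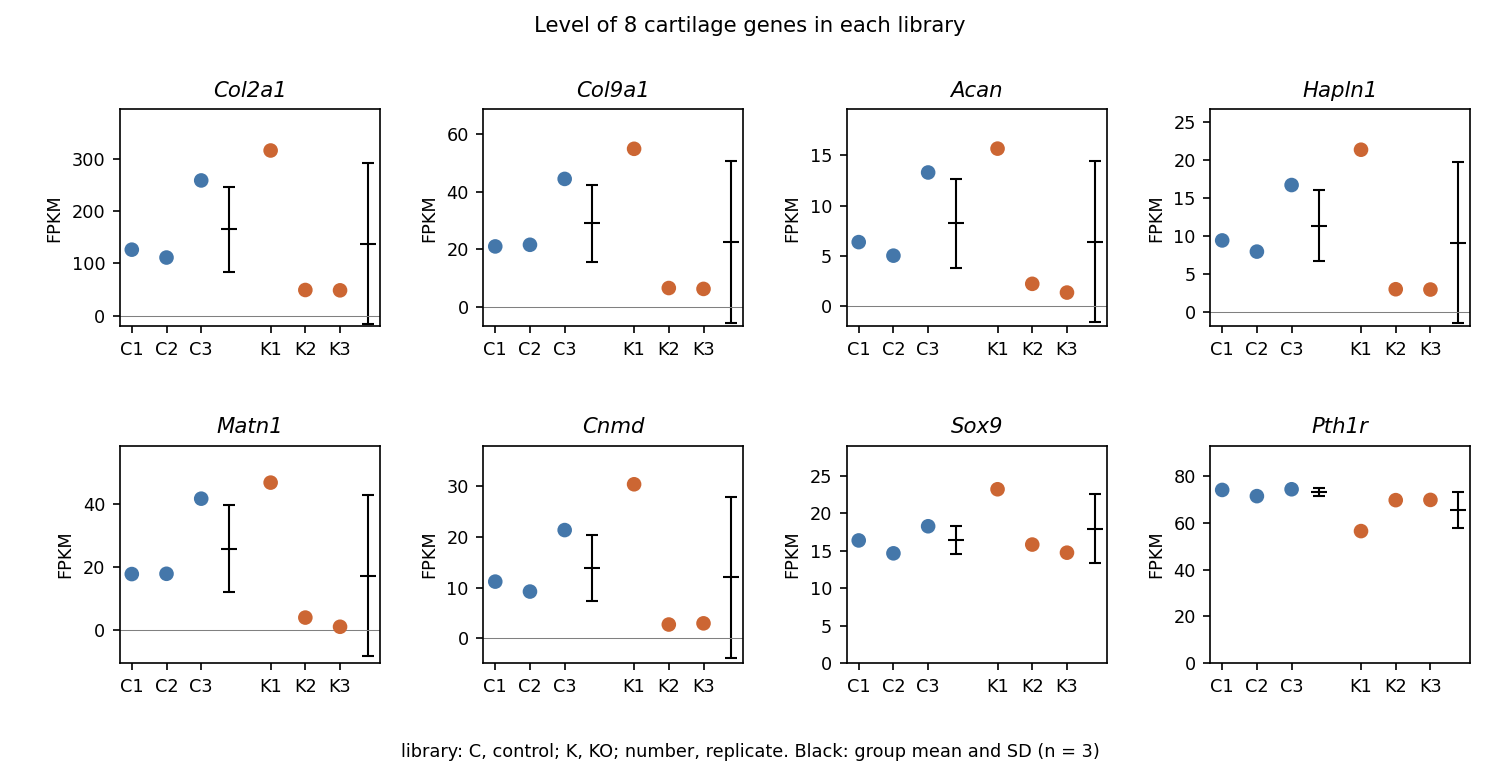
FPKM of 8 cartilage genes in each library, with controls in blue, KO libraries in orange, and the group mean and SD (n = 3) in black beside each group. For the 6 matrix genes from Col2a1 to Cnmd, KO replicate 1 is the highest point and KO replicates 2 and 3 are the lowest, while Sox9 and Pth1r span a range of under 2-fold.

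Aggrecan, the large proteoglycan that gives cartilage its stiffness, and the link protein Hapln1, which locks it onto hyaluronan, followed the collagens. Acan stood at 6.38, 5.04 and 13.3 FPKM in controls 1, 2 and 3, against 15.7, 2.24 and 1.37 FPKM in KO 1, 2 and 3. Hapln1 stood at 9.41, 7.93 and 16.7 FPKM in controls 1, 2 and 3, against 21.4, 2.98 and 2.94 FPKM in KO 1, 2 and 3. In both, KO replicate 1 was highest, control replicate 3 next, and KO replicates 2 and 3 lowest. Hapln1 stayed at 6.06% to 7.46% of the Col2a1 level in the 6 libraries, although its own level ranged over 7.28-fold. The genotype differences were -0.77 ± 0.69 (SE; limma, adjusted p = 1.00) for Acan and -0.74 ± 0.64 (SE; limma, adjusted p = 1.00) for Hapln1. The difference for Acan ran from -1.64 without KO replicate 1 to -0.23 without KO replicate 3, and that for Hapln1 from -1.58 without KO replicate 1 to -0.32 without KO replicate 3. Both were above 0 with library weights, at 0.17 and 0.17.

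Hapln3, a relative of the link protein found outside cartilage, lay at 0.554 to 0.675 FPKM in all libraries and was not tested. The annotated ends of Acan and Hapln3 face each other on chromosome 7, at 79115099 and 79115102, and these neighbours had different ranges, 11.4-fold and 1.22-fold. Chst11, the enzyme that sulfates chondroitin chains, ranged from 7.36 to 9.66 FPKM and did not follow Col2a1 either. Chad, a cell-binding leucine-rich protein, stood at 1.58, 1.42 and 3.38 FPKM in controls 1, 2 and 3, against 3.59, 1.20 and 0.818 FPKM in KO 1, 2 and 3, in the order of Col2a1. Its difference of -0.19 ± 0.36 (SE; limma, adjusted p = 1.00) turned above 0 without control replicate 3, without KO replicate 3 and with library weights. Snorc, a membrane proteoglycan of chondrocytes, was at 1.10, 1.48 and 9.76 FPKM in controls 1, 2 and 3, at 5.36 FPKM in KO replicate 1, and was listed at 0 in KO replicates 2 and 3. The Snorc difference of -1.05 ± 0.84 (SE; limma, adjusted p = 1.00) did not pass, and ran from -1.94 without KO replicate 1 to -0.30 without control replicate 3.

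Epyc (ENSMUSG00000019936), a small proteoglycan of cartilage on the plus strand of chromosome 10, 97644068 to 97682454, had the smallest p of the 30 tested. Its level was 1.92, 2.41 and 2.84 FPKM in controls 1, 2 and 3, against 1.78, 0.348 and 0.836 FPKM in KO 1, 2 and 3. The 2 groups did not overlap, but KO replicate 1 was close to control replicate 1. The group levels were 2.39 ± 0.461 FPKM (SD, n = 3) in controls and 0.989 ± 0.730 FPKM (SD, n = 3) in KO libraries. The difference of -0.82 ± 0.25 (SE; limma, adjusted p = 0.934) did not pass. With a pseudocount of 0.1 it was -1.41 (limma, adjusted p = 0.999). With single libraries left out, the adjusted p lay between 0.157 (without KO replicate 1) and 1.00 (limma).

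Matrilins link collagen fibrils to proteoglycans, Matn1 and Matn3 mainly in cartilage and Matn2 and Matn4 more widely. Matn1 (ENSMUSG00000040533), on the plus strand of chromosome 4, 130944385 to 130955475, stood at 17.7, 17.8 and 41.6 FPKM in controls 1, 2 and 3, against 46.7, 3.88 and 0.959 FPKM in KO 1, 2 and 3. This was the widest range of the genes above 0 in every library, 48.7-fold, and both ends of it were KO libraries. Matn3 stood at 2.70, 2.05 and 4.41 FPKM in controls 1, 2 and 3, against 4.68, 0.491 and 0.218 FPKM in KO 1, 2 and 3, and Matn4 at 21.5, 20.3 and 41.2 FPKM in controls 1, 2 and 3, against 42.6, 9.72 and 7.51 FPKM in KO 1, 2 and 3. Both had KO replicate 1 highest and KO replicate 3 lowest. Matn2 stood at 12.5, 12.6 and 13.1 FPKM in controls 1, 2 and 3, against 13.0, 9.00 and 13.7 FPKM in KO 1, 2 and 3 and did not share this order, with KO replicate 3 highest and KO replicate 2 lowest. The genotype differences were -1.68 ± 1.03 (SE; limma, adjusted p = 1.00) for Matn1 and -0.85 ± 0.54, -0.78 ± 0.58 and -0.11 ± 0.14 for Matn3, Matn4 and Matn2 (SE; limma, adjusted p = 1.00 each). Without KO replicate 1 the Matn1 difference was -2.99 (limma, adjusted p = 0.122), and without KO replicate 3 it was -0.69. The Matn3 and Matn4 differences ran from -1.55 without KO replicate 1 to -0.43 without KO replicate 3 and from -1.51 without KO replicate 1 to -0.33 without KO replicate 3.

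Comp, a pentameric adaptor of cartilage and tendon, stood at 2.12, 1.34 and 7.37 FPKM in controls 1, 2 and 3, against 3.34, 0.530 and 0.202 FPKM in KO 1, 2 and 3. Control replicate 3 was its highest library, and KO replicates 2 and 3 were again the lowest. Cilp, a matrix protein of the middle layer of joint cartilage, stayed between 0.782 and 1.29 FPKM and was lowest in KO replicate 1, where Col2a1 was highest. Neither passed, with differences of -0.98 ± 0.58 (SE; limma, adjusted p = 1.00) and -0.20 ± 0.12 (SE; limma, adjusted p = 1.00). For Comp this ran from -1.54 without KO replicate 1 to -0.43 without control replicate 3.

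The small proteins of chondrocytes split in the same way. Cnmd, or chondromodulin, which keeps vessels out of cartilage, stood at 11.2, 9.21 and 21.4 FPKM in controls 1, 2 and 3, against 30.4, 2.68 and 2.92 FPKM in KO 1, 2 and 3. Cytl1, a secreted protein of chondrocytes, stood at 4.59, 4.92 and 14.3 FPKM in controls 1, 2 and 3, against 23.0, 1.89 and 0.555 FPKM in KO 1, 2 and 3. Both were highest in KO replicate 1 and lowest in KO replicate 2 or 3, over 11.3-fold and 41.4-fold. Neither passed, with differences of -0.87 ± 0.78 and -0.75 ± 0.93 (SE; limma, adjusted p = 1.00 each). Without single libraries they ran from -1.89 without KO replicate 1 to -0.34 without KO replicate 2 and from -1.91 without KO replicate 1 to 0.062 without KO replicate 3, and both were above 0 with library weights, at 0.24 and 0.40. Mia, a small secreted protein, ranged from 7.42 to 15.0 FPKM, with KO replicates 2 and 3 lowest. Scrg1 stood at 0.645, 0.561 and 1.89 FPKM in controls 1, 2 and 3, against 1.78, 0.523 and 0.498 FPKM in KO 1, 2 and 3 and was under the limit for testing. It too was highest in control replicate 3 and KO replicate 1. Ucma, a vitamin K-dependent protein of the distal chondrocyte zone, stood at 2.69, 1.70 and 2.04 FPKM in controls 1, 2 and 3, against 1.16, 1.31 and 1.62 FPKM in KO 1, 2 and 3. Each KO value was under each control value, and KO replicate 1 was the lowest, the opposite end from Col2a1. Its difference was -0.40 ± 0.14 (SE; limma, adjusted p = 1.00).

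The 3 Sox transcription factors covered a narrower range than the matrix genes that followed Col2a1, and one like that of Matn2 and Cilp. Sox9 (ENSMUSG00000000567), on the plus strand of chromosome 11, 112782224 to 112787760, stood at 16.3, 14.6 and 18.2 FPKM in controls 1, 2 and 3, against 23.2, 15.8 and 14.7 FPKM in KO 1, 2 and 3. KO replicate 1 was the highest library and control replicate 3 the second, but KO replicates 2 and 3 lay within the controls. Sox5, a partner that binds beside Sox9, stood at 2.52, 2.46 and 2.88 FPKM in controls 1, 2 and 3, against 3.34, 2.67 and 2.20 FPKM in KO 1, 2 and 3. Sox5 kept close to a fixed proportion of Sox9, with a ratio of Sox9 to Sox5 between 5.91 and 6.95 in the 6 libraries. Sox6, the other partner, stood at 11.5, 9.21 and 9.08 FPKM in controls 1, 2 and 3, against 10.2, 8.59 and 10.9 FPKM in KO 1, 2 and 3 and had neither end in common with Col2a1. The Sox9 level spanned 1.58-fold while Col2a1, a gene it activates, spanned 6.51-fold. Sox9 also acts in epithelium, glia and uncondensed mesenchyme, and the part of those cells in its level was not tested.

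Wwp2, a ubiquitin ligase whose gene hosts the cartilage microRNA Mir140, stood at 42.2, 40.1 and 68.9 FPKM in controls 1, 2 and 3, against 73.2, 33.8 and 29.4 FPKM in KO 1, 2 and 3. It shared the order of Col2a1 at both ends over 2.49-fold. The genotype differences of Sox9, Sox5, Sox6 and Wwp2 were 0.10 ± 0.16, 0.037 ± 0.13, -0.0015 ± 0.12 and -0.22 ± 0.34 (SE; limma, adjusted p = 1.00 each). None of the 4 signs is stable. Sox6 turned above 0 with quantile normalization, median-of-ratios scaling and rescaling to TPM, and Sox9 and Sox5 turned below 0 without KO replicate 1, at -0.094 and -0.075. Wwp2 turned above 0 without control replicate 3 or KO replicate 3 and with library weights, at 0.22 for the last.

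Among growth plate signalling genes, Ihh and Pth1r did not share the library order of Col2a1, and Fgfr3 and Trpv4 shared it in part. Ihh, the hedgehog ligand of maturing chondrocytes, stood at 3.90, 3.17 and 3.80 FPKM in controls 1, 2 and 3, against 2.66, 1.85 and 3.20 FPKM in KO 1, 2 and 3. Control replicate 1 was highest and KO replicate 2 lowest, with KO replicate 3 inside the controls, and the difference was -0.39 ± 0.15 (SE; limma, adjusted p = 1.00). Pth1r, the receptor for PTHrP on chondrocytes and osteoblasts, stood at 74.0, 71.4 and 74.3 FPKM in controls 1, 2 and 3, against 56.4, 69.7 and 69.8 FPKM in KO 1, 2 and 3. Each KO value was under each control value, and the lowest was KO replicate 1, the library with the highest Col2a1. Its difference was -0.17 ± 0.090 (SE; limma, adjusted p = 1.00). Fgfr3, the receptor that slows chondrocyte division, stood at 21.2, 21.2 and 19.1 FPKM in controls 1, 2 and 3, against 23.5, 19.3 and 17.0 FPKM in KO 1, 2 and 3. As for Col2a1, its highest library was KO replicate 1 and its lowest KO replicate 3, over only 1.38-fold. Trpv4, a calcium channel of chondrocytes, stood at 8.11, 7.61 and 8.52 FPKM in controls 1, 2 and 3, against 7.53, 7.45 and 6.46 FPKM in KO 1, 2 and 3. KO replicates 2 and 3 were its lowest libraries, over 1.32-fold. Neither passed, with differences of -0.047 ± 0.11 and -0.16 ± 0.085 (SE; limma, adjusted p = 1.00 each). Col10a1, the collagen of hypertrophic chondrocytes, was listed at 0 in 5 libraries and stood at 0.101 FPKM in control replicate 3. Col2a1, Acan and the other matrix genes of early chondrocytes were above 0 in all libraries, apart from Snorc, while this marker of hypertrophy was at or near 0.

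**Figure D2:**
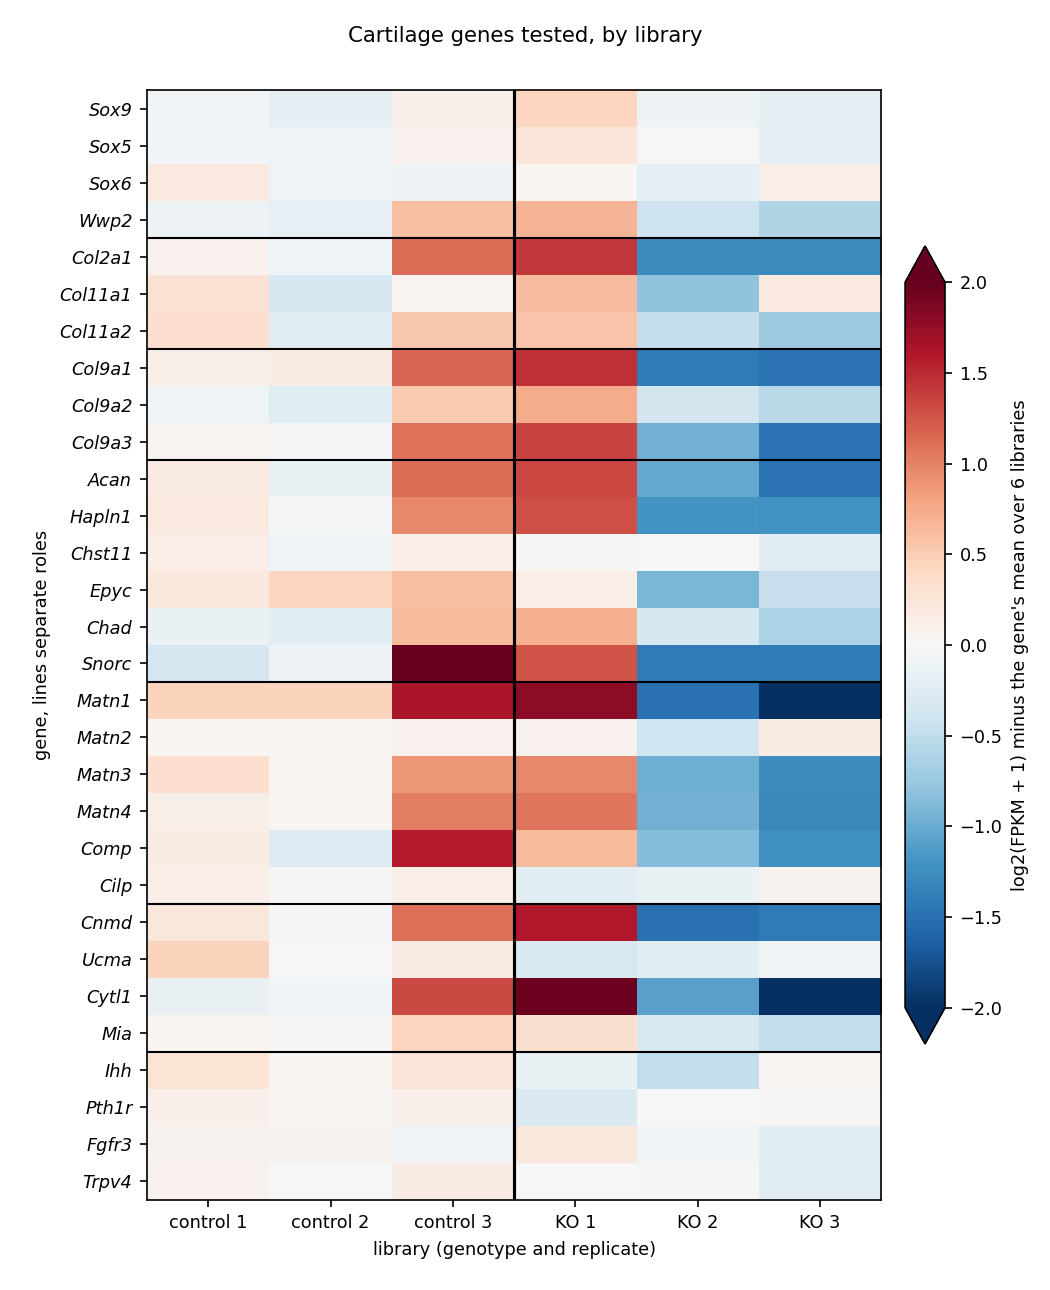
Log2(FPKM + 1) of the 30 tested cartilage genes in each library, minus the gene's mean over the 6 libraries, with colours capped at 2 either way. Red in control replicate 3 and KO replicate 1 and blue in KO replicates 2 and 3 mark most matrix genes. Col11a1, Epyc, Matn2 and Cilp lack this pattern, and the rows from Ihh to Trpv4 are pale.

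Over the list, 0 of the 30 tested genes passed as higher and 0 as lower in KO (limma, adjusted p under 0.05), where 0.326% and 0.00680% of all tested genes were called in these directions. At an unadjusted p under 0.05, 3 were lower, Epyc, Ucma and Ihh, and 0 were higher, beside 1.92% and 2.09% of all tested genes. The groups did not overlap for 4 genes, all with lower KO values, namely Epyc, Ucma, Pth1r and Trpv4, beside 5.79% of all tested genes. No gene had all KO values above the controls, beside 3.27%. The difference was below 0 for 27 of 30 genes, 90.0%, and for 59.4% of all tested genes. The median was -0.39, beside -0.021 over all tested genes. It was -0.60 without KO replicate 1, and -0.27 and -0.22 without KO replicate 2 or 3. Without control replicate 3 it was -0.27, and with library weights 0.044. With no filter, over all 33 genes, it was -0.33, beside -0.013 over all 25387 genes above 0 in any library.

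**Figure D3:**
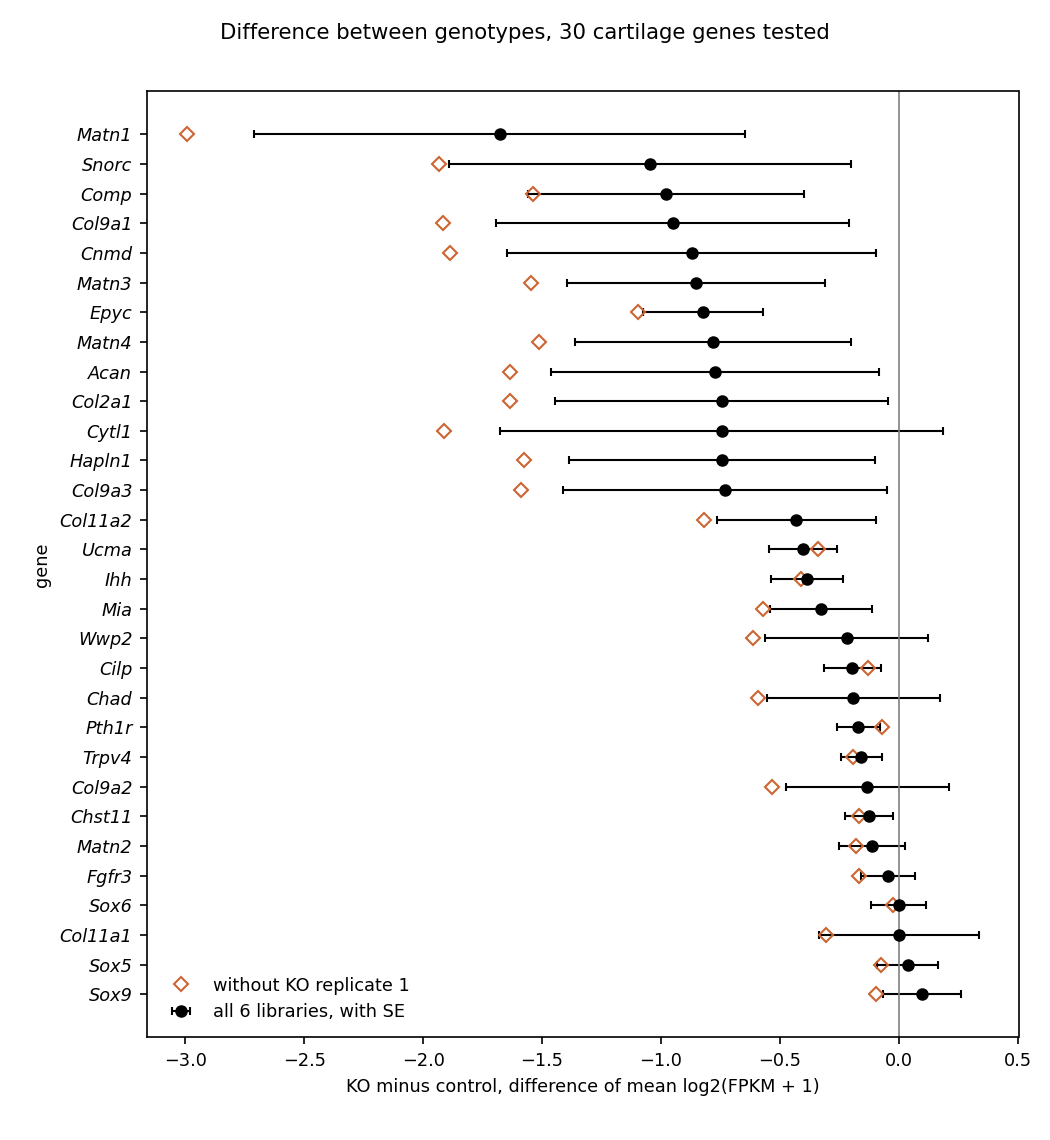
Difference of mean log2(FPKM + 1), KO minus control, for the 30 tested genes, with black points and bars for the estimate and its SE from all 6 libraries and open diamonds for the value without KO replicate 1. From Matn1 to Col9a3 the diamonds lie left of the points, and for Matn1 the value goes from -1.68 to -2.99.

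Without KO replicate 1, still 0 of 30 genes passed, and the smallest adjusted p was 0.116, for Col9a1 at -1.92. That fit rests on 2 KO libraries. The level of the list in a library was taken as the median, over the 30 genes, of log2(FPKM + 1) minus the mean of the controls. It was -0.14, -0.31 and 0.39 in control replicates 1 to 3 and 0.50, -0.69 and -0.72 in KO replicates 1 to 3. Summed over the 33 genes, FPKM came to 620.1, 549.9 and 970.5 in the controls and 1099, 374 and 369 in the KO libraries. Col2a1 made up 13.1% of that sum in KO replicate 2 and 28.7% in KO replicate 1. In whole tissue, fewer cartilage cells in the piece dissected and less cartilage RNA per cell cannot be told apart.

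The order of the libraries was counted after the values had been seen. KO replicates 2 and 3 were the 2 lowest libraries for 19 of the 30 genes, beside 5.61% of all tested genes. Control replicate 3 and KO replicate 1 were the 2 highest for 19, beside 4.88%, and both held for 17, beside 1.56%. The SD of log2(FPKM + 1) had a median of 0.399 among controls and 0.697 among KO libraries for the cartilage genes. Over all tested genes it was 0.0994 and 0.119. The SD was larger among KO libraries than among controls for 27 of 30 cartilage genes and for 61.7% of all tested genes.

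Each gene was also divided by Col2a1 in the same library. A gene that hardly varies takes on the spread of Col2a1 in this ratio. A larger SD as a ratio therefore says little more than the level does. Of 30 other genes above 0 in every library, 13 had a smaller SD over the 6 libraries as a ratio to Col2a1 than as a level, on the log2 scale with no pseudocount, and 17 a larger one. For Hapln1 the SD was 1.21 as a level and 0.123 as a ratio. Col9a3, Matn4 and Col9a1 had ratios with an SD of 0.168, 0.193 and 0.223. Cytl1, Comp, Matn3 and Matn1 varied most of these genes, with an SD of the level of 1.95, 1.87, 1.81 and 2.17, beside 1.15 for Col2a1. At the other end Hapln3, Trpv4, Pth1r, Chst11, Fgfr3 and Sox6 had an SD of the level of 0.0943, 0.135, 0.148, 0.151, 0.161 and 0.166. Each ratio holds the gene's own level and that of Col2a1, so ratios and levels are not independent.

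**Figure D4:**
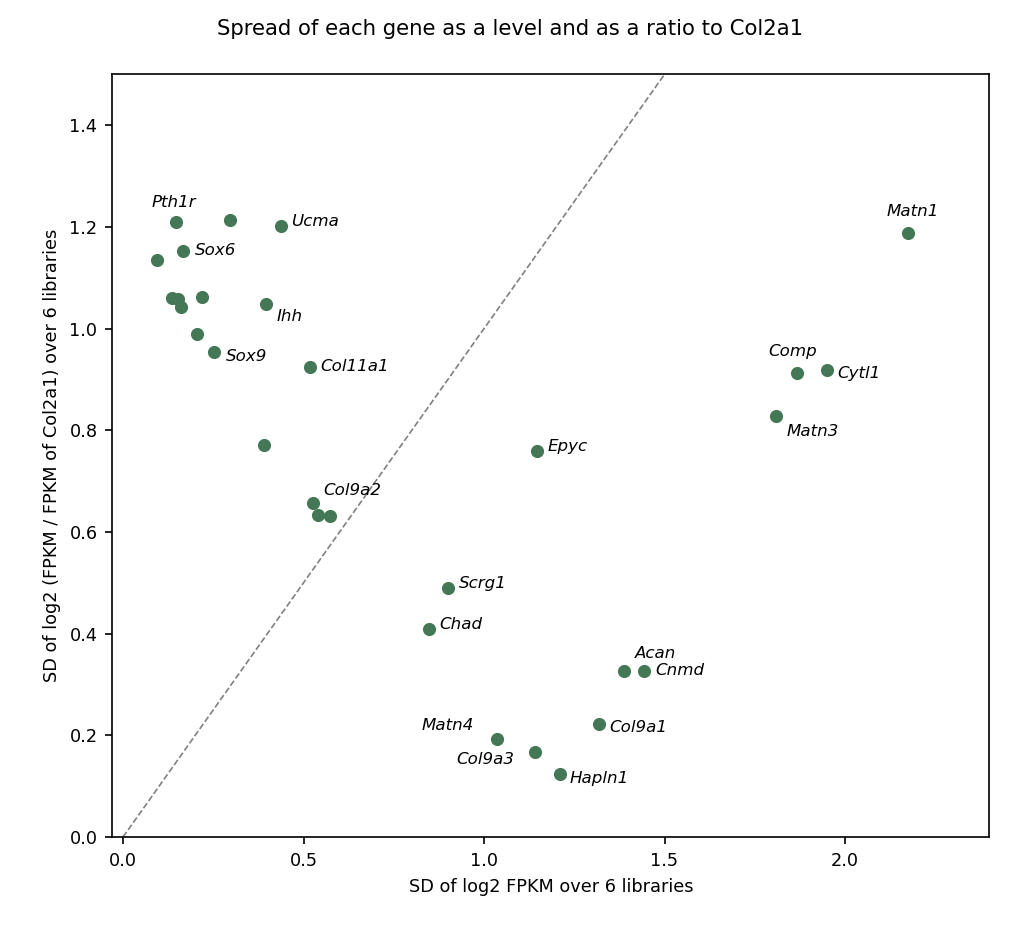
For 30 cartilage genes above 0 in every library, the SD over the 6 libraries of log2 FPKM (horizontal) against the SD of log2 of the ratio to Col2a1 (vertical), with a dashed line where both are equal. Hapln1, Col9a3, Matn4 and Col9a1 lie lowest, Matn1 lies far right, and Sox9, Sox6 and Pth1r lie above the line at the left.

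Library profiles over all genes were then compared with that of Col2a1, by the root mean square difference of centred log2(FPKM + 1) over the 6 libraries. Among 12817 protein-coding genes, the 10 closest were Hapln1, Acan, Col9a1, Col9a3, Cnmd, Matn4, Matn3, Foxc2, Cytl1 and Comp, at 0.0995 to 0.407, where a flat profile would be at 1.04. Of these, 9 are in the list. Foxc2, a transcription factor of mesenchyme and vessels, is not, and stood at 5.24, 4.78 and 9.64 FPKM in controls 1, 2 and 3, against 9.91, 1.81 and 2.22 FPKM in KO 1, 2 and 3. KO replicate 1 was its highest library and KO replicate 2 its lowest. Snorc ranked 11th, Wwp2 21st and Chad 22nd, while Sox9 ranked 193rd, Sox6 6348th and Pth1r 11042nd. With a pseudocount of 0.1 or 0.01, 7 of the 10 remained among the closest.

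Other genes of chondrocytes and of mesenchymal condensations were taken from a list of 46, of which 37 were tested. In limma 0 passed in either direction, 30 were below 0 and 7 above, and the median difference was -0.12. Of all tested genes, 59.4% were below 0. KO replicates 2 and 3 were the 2 lowest libraries for 15 of 37, beside 5.61% of all tested genes. For 10 of 37, control replicate 3 and KO replicate 1 were also the 2 highest, beside 1.56%. The 4 with the smallest p were Sox8, a relative of Sox9, Chpf and Chsy1, which extend chondroitin chains, and Nkx3-2, a repressor that promotes early cartilage. Sox8 was at 3.64 ± 0.380 and 3.00 ± 0.0684 FPKM in control and KO libraries (SD, n = 3 each). Nkx3-2 was at 2.24 ± 0.952 and 1.19 ± 0.571 FPKM, Chpf at 25.4 ± 3.24 and 21.6 ± 1.90 FPKM and Chsy1 at 30.6 ± 1.21 and 28.1 ± 0.716 FPKM. None passed (limma, adjusted p = 1.00 each).

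The ligands, receptors and targets that connect Ihh, PTHrP and FGF signals in the growth plate formed a list of 15, all tested. Again 0 passed in either direction in limma, with 10 below 0 and 5 above, and a median of -0.048. The share below 0 was 59.4% over all tested genes. Gli1, a target of hedgehog signals, was at 46.5 ± 3.22 and 40.9 ± 3.92 FPKM in control and KO libraries (SD, n = 3 each). Hhip, an antagonist and target, was at 3.02 ± 0.710 and 3.95 ± 1.14 FPKM, above 0 in its difference. Fgf18, a ligand of Fgfr3, stood at 6.24, 7.01 and 8.49 FPKM in controls 1, 2 and 3, against 9.01, 4.31 and 5.72 FPKM in KO 1, 2 and 3, highest in KO replicate 1 and lowest in KO replicate 2. None of these 3 passed (limma, adjusted p = 1.00 each).

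Markers of other cell types in the dissected tissue were summed beside the cartilage genes. The 14 osteoblast markers summed to 1771, 1213 and 1341 FPKM in control replicates 1 to 3 and 1123, 1285 and 1573 FPKM in KO replicates 1 to 3, lowest in KO replicate 1, where cartilage genes were highest. Ibsp, bone sialoprotein, stood at 426, 229 and 216 FPKM in controls 1, 2 and 3, against 149, 312 and 318 FPKM in KO 1, 2 and 3. The 10 neuronal markers summed to 56.6, 76.5 and 107 FPKM in controls and 101, 61.0 and 48.1 FPKM in KO libraries. This sum was highest in control replicate 3 and KO replicate 1, as was the cartilage sum. Of the 10 markers, 2 had these libraries highest and KO replicates 2 and 3 lowest. This order held for 17 of 30 cartilage genes and 1.56% of all tested genes. All 10 neuronal markers were above 0 in every library. The 16 muscle markers summed to 465, 704 and 822 FPKM in controls and 461, 698 and 517 FPKM in KO libraries, high in control replicate 3 but lowest in KO replicate 1. Below 0 in their genotype difference were 9 of 11 osteoblast, 7 of 10 neuronal and 15 of 15 muscle markers tested. Of all tested genes, 59.4% were below 0. In limma 0 markers of each of these lists passed. The part of these other cells in the cartilage values was not tested.

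**Figure D5:**
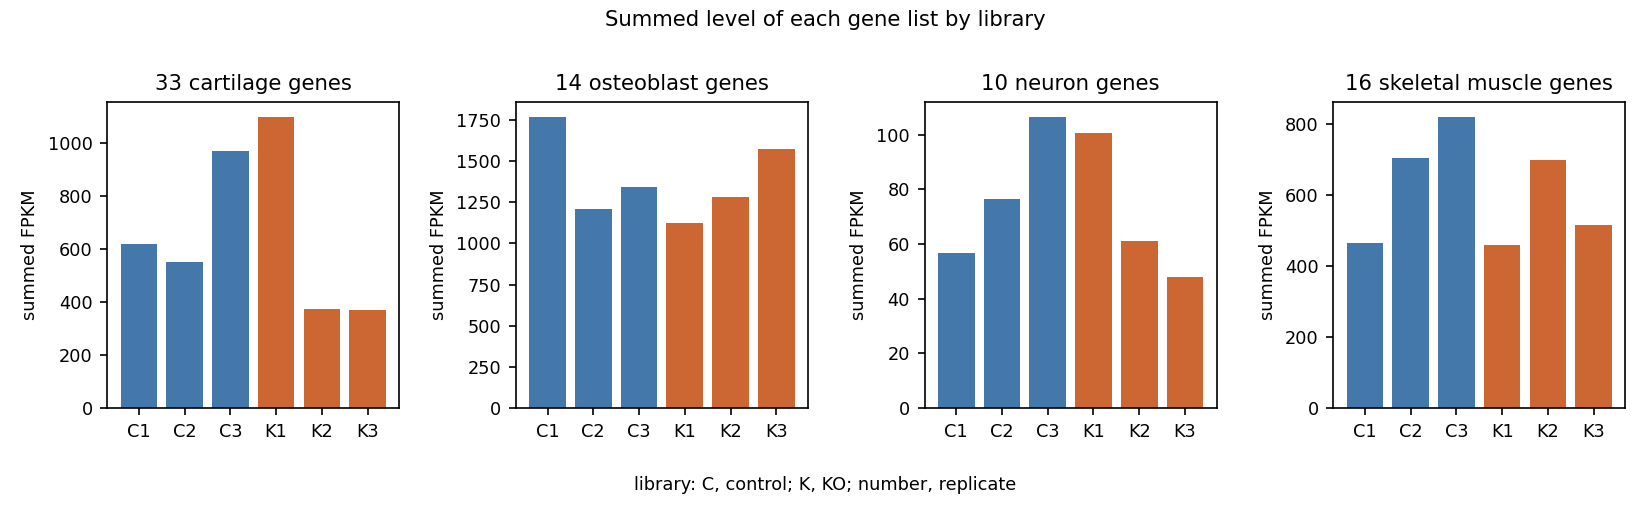
Summed FPKM per library (bars from 0) of the 33 cartilage genes and of the osteoblast, neuronal and skeletal muscle markers, controls in blue and KO libraries in orange. The cartilage sum runs from 369 in KO replicate 3 to 1099 in KO replicate 1, and the osteoblast sum is lowest in KO replicate 1.

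The remaining marker lists had sums of 217 to 250.3 FPKM in controls and 191 to 274 FPKM with Cre for 9 tendon and perichondrium genes, 439.5 to 563 FPKM in controls and 382 to 669 FPKM with Cre for 12 epithelial genes, and 160.2 to 182 FPKM in controls and 128 to 155 FPKM with Cre for 10 endothelial genes. The sums were 84.4 to 99.0 FPKM in controls and 69.2 to 102 FPKM with Cre for 11 nasal genes, of which Cyp2g1 was listed at 0 in all libraries. For 12 leukocyte genes they were 72.8 to 91.2 FPKM in controls and 104 to 142 FPKM with Cre, higher in every KO library than in every control. All 11 leukocyte and 0 of 10 endothelial markers tested were above 0 in their difference, where 59.4% of all tested genes were below 0. In these lists 0 markers passed in limma. Lyz2, a lysozyme of macrophages, and Adgre1 had the smallest p of the markers (limma, adjusted p = 0.152 and 0.160).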

How the data were processed

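The authors deposited 1 table of FPKM values, a unit known from the table's name, for 55631 Ensembl gene IDs in 6 libraries. The submitters' processing notes name mm10 and DESeq2 version 1.5.2, while aligner, counter, annotation and strand are not given in the sources used. Groups came from the library titles and columns from the library names. All 6 columns were used. Symbols and coordinates came from GENCODE M21 (GRCm38), which matched 50824 IDs, and promoters from RefSeq (GRCm38.p6).

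Log2(FPKM + 1) was fitted in R 4.3.3 with limma 3.58.1, with genotype as the only term, eBayes with trend, and two-sided p-values adjusted by Benjamini-Hochberg over 14714 genes averaging 1 FPKM or more, at a threshold of 0.05. Fold changes on this scale are understated for low genes. The fit was tested on simulated data. Every cartilage gene is described. Of the other lists, up to 4 genes of a pathway list and up to 2 of a marker list with the smallest p could be named, with the 10 genes closest to Col2a1. One gene that this rule would name is not reported here. Ibsp, and the genes ranked after the first 10 in likeness, were chosen after their values were seen. The genes and lists were chosen with earlier results of these data known. Depth is unknown, so no counting interval is given.

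The alternatives were 2 lower pseudocounts (0.1 and 0.01), filters of 0, 0.1 and 5 FPKM, TPM, median-of-ratios scaling, quantile normalization, eBayes without trend or robust, library weights, a replicate block, and each library left out.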

Additional observations from a re-analysis of the deposited data

How the results depend on the processing

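No cartilage gene passed under any alternative run, in either direction, and the smallest adjusted p was 0.116, for Col9a1 without KO replicate 1. The median difference stayed below 0 except with library weights, and over single libraries left out it ran from -0.60 to -0.22. Over all genes, the count of lower genes was 2 with no filter and with a filter at 0.1 FPKM, and 1 to 2 with single libraries left out. A filter at 5 FPKM, which tests fewer genes, gave 24 higher and 0 lower genes. With library weights, which gave KO replicate 1 a weight of 2.14 and KO replicate 2 one of 0.373, the differences turned above 0, at 0.22, 0.23, 0.090, 0.038, 0.32, 0.16, 0.17, 0.17, 0.25, 0.24, 0.40 and 0.049 for Wwp2, Col2a1, Col11a2, Col9a1, Col9a2, Col9a3, Acan, Hapln1, Chad, Cnmd, Cytl1 and Fgfr3. Sox6 was at 0.0060, 0.013, 0.029 and 0.094 with quantile normalization, median-of-ratios scaling, TPM and library weights, and Col11a1 at -0.0016 and -0.0019 with pseudocounts of 0.1 and 0.01. The cause was not tested. Signs also turned with single libraries left out, in ranges of -0.094 to 0.22 for Sox9, -0.075 to 0.14 for Sox5, -0.069 to 0.10 for Sox6, -0.62 to 0.028 for Wwp2, -0.31 to 0.41 for Col11a1, -0.53 to 0.11 for Col9a2, -0.59 to 0.077 for Chad, -0.22 to 0.059 for Matn2, -1.91 to 0.062 for Cytl1 and -0.17 to 0.056 for Fgfr3. Same-numbered libraries of the 2 groups are linked by no label beyond the number, and whether they share a litter is unknown. The correlations of their deviations over genes were 0.0192, 0.305 and -0.241, beside -0.284 to 0.314 for differently numbered pairs. With that replicate block 41 genes were higher, 1 lower and 0 cartilage genes were called, with a median of -0.39. Values near 0.1 FPKM, the lowest listed above 0, limit Col10a1, Snorc, Comp and Matn3.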
